A study of Mus musculus with 38 samples.

Results

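The genes described are those of the proteasome and of ubiquitin conjugation, taken by name: every array probe with 1 gene whose symbol begins with Psma, Psmb, Psmc, Psmd, Psme, Psmg or Ube2, other than Psmb8, Psmb9 and Ube2l6. The name found 64 probes for 60 genes among 13443 probes. Of these, 45 probes for 43 genes were measured in 3 or more mice per group and were tested, 24 of the 40 Psm probes and 21 of the 24 Ube2 probes. That is 70.3% of the probes found by name, against 61.9% (8319 probes) of the whole array. The name rule used no level and no change, but it was chosen with earlier results of these data known. Spleen cells came from DBA/2 mice, either left untreated (5 mice) or given cyclophosphamide at 83 mg/kg into the peritoneum and taken 1 day (4 mice), 2 days (5 mice) or 5 days (5 mice) later. Cyclophosphamide is an alkylating drug that crosslinks DNA and kills dividing cells. No vehicle-injected group is among these samples, and the labels used here give neither age nor sex. Each mouse had 2 technical arrays, averaged here, and each value is the log2 ratio of spleen RNA (Cy5) to the same bone marrow RNA pool (Cy3), so a value of 0 means an equal signal in spleen and in the marrow pool. The ratio compares a gene with itself between mice, and not the levels of different genes.

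Proteins are marked for destruction by a relay: an E1 enzyme activates ubiquitin, an E2 conjugating enzyme (most Ube2 genes) carries it, and an E3 ligase helps to pass it to the target. Chains of ubiquitin are then read by the proteasome, a barrel of alpha rings (Psma) and beta rings (Psmb) whose inner beta subunits cut peptides, with a cap of ATPases (Psmc) and other subunits (Psmd) that binds, unfolds and feeds in the target. Activators (Psme) are other caps, and chaperones (Psmg, Psmd9, Psmd10) help to build the particle. In the spleen the same machinery supplies peptides for display to T cells, removes cyclins in dividing cells, and, through a few E2 enzymes that attach ubiquitin as a signal, serves the repair of damaged DNA.

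The arrays held 5829 to 10407 values each, with medians between -0.0212 and 0.0132. Technical arrays of a mouse correlated at 0.581 to 0.962, lowest in untreated mice 4 and 2 and day 5 mouse 5. As a check of the tissue against marrow, 3 T cell probes measured in all mice averaged 0.55 ± 0.27 (SD, n = 5) in the untreated mice and 6 neutrophil probes -1.91 ± 0.41. Of the other T cell probes tested, Cd4 averaged 0.35, Zap70 0.16 and Cd8a -0.0087 in the untreated mice. Of 6 mature B cell probes, Ms4a1 (1.57) and Cd22 (1.47) were well above the marrow pool there, while Cd79a (0.03), Blk (-0.03), Fcer2a (-0.16) and Cd37 (-0.26) were not. Red cell precursor markers fell for 6 of 12 probes on day 1 and 9 on day 2, and mitosis markers for 5 and 7 of 11. The mean over 7 mitosis probes measured in all mice ranged from -0.81 to -0.21 in untreated mice, and on days 1, 2 and 5 its ranges were -2.20 to -1.68, -2.31 to -1.66 and -1.02 to -0.25. In the same order, 8 red cell precursor probes had -0.74 to -0.13, -2.11 to -1.17, -2.83 to -1.48 and -0.83 to 0.0068, and 5 macrophage probes 0.46 to 0.73, 1.16 to 1.47, 1.23 to 1.78 and 0.75 to 1.07. Of all 9 macrophage probes tested 1 rose on day 1 and 3 on day 2, and of 11 stroma and endothelium probes 2 rose on each of these days. The mean over 6 stroma and endothelium probes was 0.98 ± 0.36 in untreated mice, and 2.05 ± 0.20, 1.84 ± 0.50 and 1.36 ± 0.56 on days 1, 2 and 5. In such bulk samples fewer cells of a type and less RNA per cell cannot be told apart, and the part of these shifts in the values below was not tested. In the text, "rose" and "fell" mean an adjusted p under 0.05 by limma over all 8319 probes. Where groups of mice are said not to overlap, this only describes their values. The share of all probes without overlap was not counted, so it is no sign of a change beside the test.

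Against untreated spleen the proteasome genes showed no change that passed the test on any day, while 4 conjugating enzymes did. Ube2t and Ube2e3 fell on day 1 and on day 2 and rose again by day 5, Ube2b fell on day 2, and Ube2n rose on day 1. These calls were not equally firm. Of 31 alternative fits, the Ube2n rise passed in 13 and the Ube2t rise from day 2 to day 5 in 14. The day 2 falls of Ube2t and Ube2e3 passed in all 31. On day 1, 1 of the 45 probes rose, against 0.938% of all probes, and 2 fell, against 1.39%. On day 2 none rose, against 3.31%, and 3 fell, against 5.00%. With so few calls, the genes are not set apart from the array as a group. On day 5 none rose (0.0481% of all probes) and none fell (0.0240%). The median change of the 45 probes was -0.05 on day 1, -0.02 on day 2 and 0.07 on day 5, where the whole array had 0.02, 0.01 and 0.01. At an unadjusted p under 0.05, 3 probes were higher and 4 lower on day 1, 3 and 8 on day 2, and 2 and 0 on day 5. Of all 8319 probes the counts at that p were 611 higher and 488 lower on day 1, 828 and 911 on day 2, and 260 and 174 on day 5.

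Ube2t, the E2 of the Fanconi anaemia pathway, which marks stalled forks at DNA crosslinks for repair, had the lowest change of the 45 probes on both day 1 and day 2. Its log2 ratio in untreated mice 1 to 5 was 0.055, -0.098, 0.053, -0.0061 and 0.021. On day 1 the mice had -0.61, -1.16, -0.89 and -0.83, and on day 2 -0.87, -0.27, -1.26, -0.43 and -1.29. By day 5 the values were -0.092, -0.21, -0.23, -0.44 and -0.14. Every day 1 and day 2 mouse lay below every untreated mouse, and the day 2 mice spread widely, from near the day 5 level to far below it. Ube2t fell by 0.88 on the log2 scale on day 1 (SE 0.18, 1.84-fold lower, adjusted p = 0.00971) and by 0.83 on day 2 (SE 0.17, 1.77-fold lower, adjusted p = 0.00358). Without day 1 mouse 2, the lowest of that day, the day 1 change was -0.78 with an adjusted p of 0.0513. The mitosis and red cell precursor markers were low on the same days, and their part in this course was not tested.

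The 250 bases before the RefSeq start of Ube2t are shown because this gene is the member with the lowest change, and those of Ube2n because it is the only member that rose on day 1. Both are from GRCm38.p6, in the direction of transcription, with CCAAT in capitals where it occurs. Ube2t, at chr1:134962315-134962564 on the plus strand, has CCAAT at 124 to 120, 80 to 76 and 40 to 36 bases before the start. Ube2n, at chr10:95514912-95515161 on the plus strand, holds none of the 4 motifs searched.
Ube2t: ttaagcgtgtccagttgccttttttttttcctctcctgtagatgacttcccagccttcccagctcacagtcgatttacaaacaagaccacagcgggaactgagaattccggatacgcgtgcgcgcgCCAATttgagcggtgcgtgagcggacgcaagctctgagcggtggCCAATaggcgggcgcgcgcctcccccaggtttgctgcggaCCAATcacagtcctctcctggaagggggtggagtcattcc
Ube2n: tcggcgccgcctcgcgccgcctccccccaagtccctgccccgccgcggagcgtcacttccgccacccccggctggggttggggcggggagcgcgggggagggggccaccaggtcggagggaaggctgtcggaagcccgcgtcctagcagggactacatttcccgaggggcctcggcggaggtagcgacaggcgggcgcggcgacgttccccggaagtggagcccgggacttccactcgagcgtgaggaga
RefSeq promoters were at hand for 34 of the 43 tested genes. The motifs were CCAAT, bound by NF-Y, TGANNNNGC, the core of the antioxidant element bound by Nrf1 and Nrf2, TTTGAA, the cell cycle homology region, and AGATAA, bound by GATA factors, each searched on both strands. CCAAT occurred in 10 of the 42 promoters of tested members (23.8%) and in 33.8% of all 32851 promoters. For TGANNNNGC the shares were 28.6% and 35.2%, for TTTGAA 2.38% and 16%, and for AGATAA 2.38% and 9.99%. Ube2b, which has 2 listed starts, held none of the 4 motifs in either window. These matches describe letters only.

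Ube2e3, a nuclear E2 with a long amino-terminal extension, followed much the same days. In untreated mice its log2 ratio was -0.038, -0.040, -0.18, 0.0067 and -0.027. The day 1 mice had -0.54, -0.86, -0.51 and -0.52, the day 2 mice -0.92, -0.46, -0.93, -0.56 and -0.85, and the day 5 mice 0.058, -0.20, -0.11, 0.058 and -0.24. All mice of days 1 and 2 were below all untreated and all day 5 mice. Ube2e3 fell by 0.55 on day 1 (SE 0.13, 1.47-fold lower, adjusted p = 0.0220) and by 0.69 on day 2 (SE 0.12, 1.61-fold lower, adjusted p = 0.000855). Its day 1 change without day 1 mouse 2 was -0.47, with an adjusted p of 0.0973, while the day 2 change kept its call in every fit that left out 1 mouse. The related Ube2e1, of the same E2 class, did not share this course: its day 2 change was 0.46 (SE 0.19, adjusted p = 0.149).

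Ube2b is a mouse counterpart of yeast Rad6 that works with Rad18 on the replication clamp at damaged forks. It passed the test on day 2 and not on day 1. Untreated mice had log2 ratios of 0.27, 0.23, 0.14, -0.049 and -0.30, and day 1 mice -0.022, -0.098, -0.14 and 0.11. The day 2 mice were tightly placed at -0.41, -0.44, -0.38, -0.46 and -0.34, and the day 5 mice at -0.040, -0.13, -0.10, -0.18 and -0.096. Each day 2 mouse was thus below every mouse of the other 3 groups, although untreated mouse 5 came close. Ube2b fell by 0.46 on day 2 (SE 0.11, 1.38-fold lower, adjusted p = 0.0119). That call was lost under quantile normalization, with technical array 1 alone and with only the groups compared. It was also lost without the 3 mice of lowest technical correlation, and the adjusted p in these fits was 0.0562 to 0.0647. The change of Ube2b was -0.10 on day 1 (SE 0.12) and -0.17 on day 5 (SE 0.11). From day 1 to day 2 Ube2b changed by -0.37 (SE 0.12, adjusted p = 0.562), which did not pass. Its sister gene Ube2a had a value in only 2 mice and was not tested.

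Ube2n, which with a Ube2v partner builds the ubiquitin chains used in damage and immune signalling rather than in degradation, had log2 ratios of -0.30, -0.12, -0.077, -0.43 and -0.13 in untreated mice. On day 1 the values were 0.15, 0.40, 0.20 and 0.10, on day 2 -0.095, -0.048, -0.12, -0.026 and 0.080, and on day 5 -0.044, 0.019, -0.13, 0.067 and -0.066. All day 1 mice were above all mice of the other groups. Ube2n rose by 0.42 on day 1 (SE 0.11, 1.34-fold higher, adjusted p = 0.0440), and its changes of 0.17 on day 2 and 0.18 on day 5 did not pass. The day 1 call was close to the threshold: in 13 of 19 fits that each left out 1 mouse the adjusted p was 0.0509 to 0.157, namely without untreated mouse 1, 2, 4 or 5, any day 1 mouse, day 2 mouse 3 or 5, or day 5 mouse 1, 2 or 5. Its partners Ube2v1 and Ube2v2, which resemble E2 enzymes but lack the catalytic cysteine, changed by 0.06 (SE 0.13) and 0.20 (SE 0.26) on day 1, neither past the test.

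**Figure D1:**
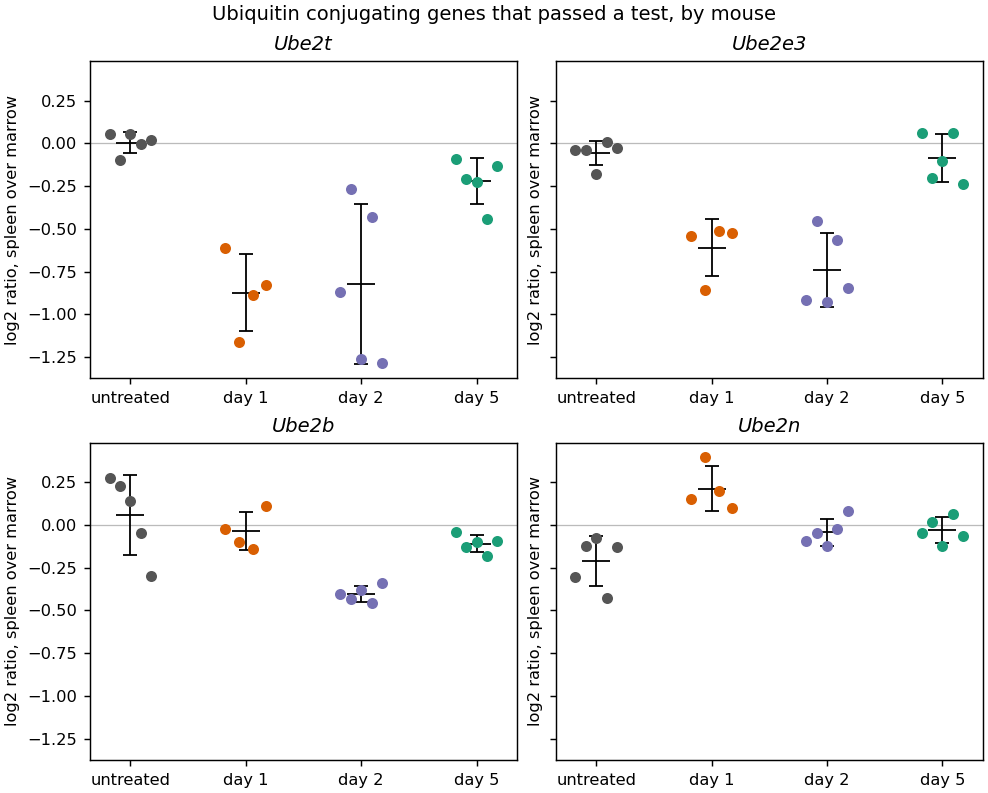
Log2 ratio to the marrow pool (vertical axis) of the 4 conjugating enzymes that passed the test, with 1 point per mouse by group (horizontal axis) and bars for the mean ± SD of 5, 4, 5 and 5 mice. Ube2t and Ube2e3 lie low on days 1 and 2, Ube2b has its 5 day 2 mice between -0.46 and -0.34, and the 4 day 1 mice of Ube2n, at 0.10 to 0.40, lie above all others.

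Of the other E2 genes none passed the test in any comparison. Ube2l3, the E2 of HECT and RING-between-RING ligases, had changes of 0.56 on day 1 (SE 0.22, adjusted p = 0.237) and 0.56 on day 2 (SE 0.21, adjusted p = 0.109). Its untreated mice, at -0.12, -1.40, -0.47, -0.20 and 0.19, spanned most of the range seen, with untreated mouse 2 lowest of all. Untreated mouse 2 lowers the untreated mean (-0.40) and so adds to both changes. Without untreated mouse 5, and with untreated mouse 2 kept, the day 2 change of Ube2l3 was 0.71, with an adjusted p of 0.0365. In no other alternative fit did Ube2l3 pass, the fit without untreated mouse 2 included. Ube2r2, a partner of cullin ligases, had untreated values of -0.28, 0.16, -0.047, -0.016 and -0.012 and day 2 values of -0.41, -0.41, -0.41, -0.55 and -0.75. Those groups did not overlap, and the change of -0.47 (SE 0.17) did not pass (adjusted p = 0.103). The remaining genes of the mixed class, Ube2d2a, Ube2d3, Ube2k, Ube2o, Ube2q1 and Ube2cbp, changed by -0.34 to 0.32 on day 1 and by -0.23 to 0.30 on day 2. Ube2cbp carries the prefix for binding an E2 and is itself no conjugating enzyme.

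Among the E2 genes of degradation from the endoplasmic reticulum, Ube2g1 had untreated values of 0.12, -0.78, -0.10 and -0.12 and day 1 values of 0.15, 0.26, -0.21 and 0.078, and its changes were 0.29 on day 1, 0.24 on day 2 and 0.31 on day 5, none past the test. The -0.78 of untreated mouse 2 lowers the untreated mean of Ube2g1 and so adds to all 3 changes. Ube2g2 changed by 0.11, 0.18 and -0.02 on the same days. The 3 probes of Ube2j2, a membrane-anchored E2, gave day 2 changes of -0.17, -0.13 and 0.15, so they did not share a sign. The probe of the 3 that had the smallest p over the 4 groups read 0.20, -0.62, -0.10, 0.15 and 0.46 in untreated mice and 0.14, 0.29, 0.19, 0.23 and -0.022 on day 2. Ube2f, which conjugates the ubiquitin-like protein NEDD8 rather than ubiquitin, had day 1 values of 0.22, 0.0074, -0.13 and 0.17 and day 2 values of -0.38, -0.43, -0.36, -0.46 and -0.24. Every day 2 mouse was below every day 1 mouse, and the difference of -0.44 (SE 0.19) did not pass (adjusted p = 0.778). Ube2c, the E2 of the anaphase-promoting complex and hence the member most tied to mitosis, had a value in 9 mice only and could not be tested. Those values were 0.56 in untreated mouse 4, -1.67, -0.13 and -0.29 in 3 day 1 mice, 0.19 in 1 day 2 mouse and -0.055, -0.65, -0.76 and -0.13 in 4 day 5 mice.

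**Figure D2:**
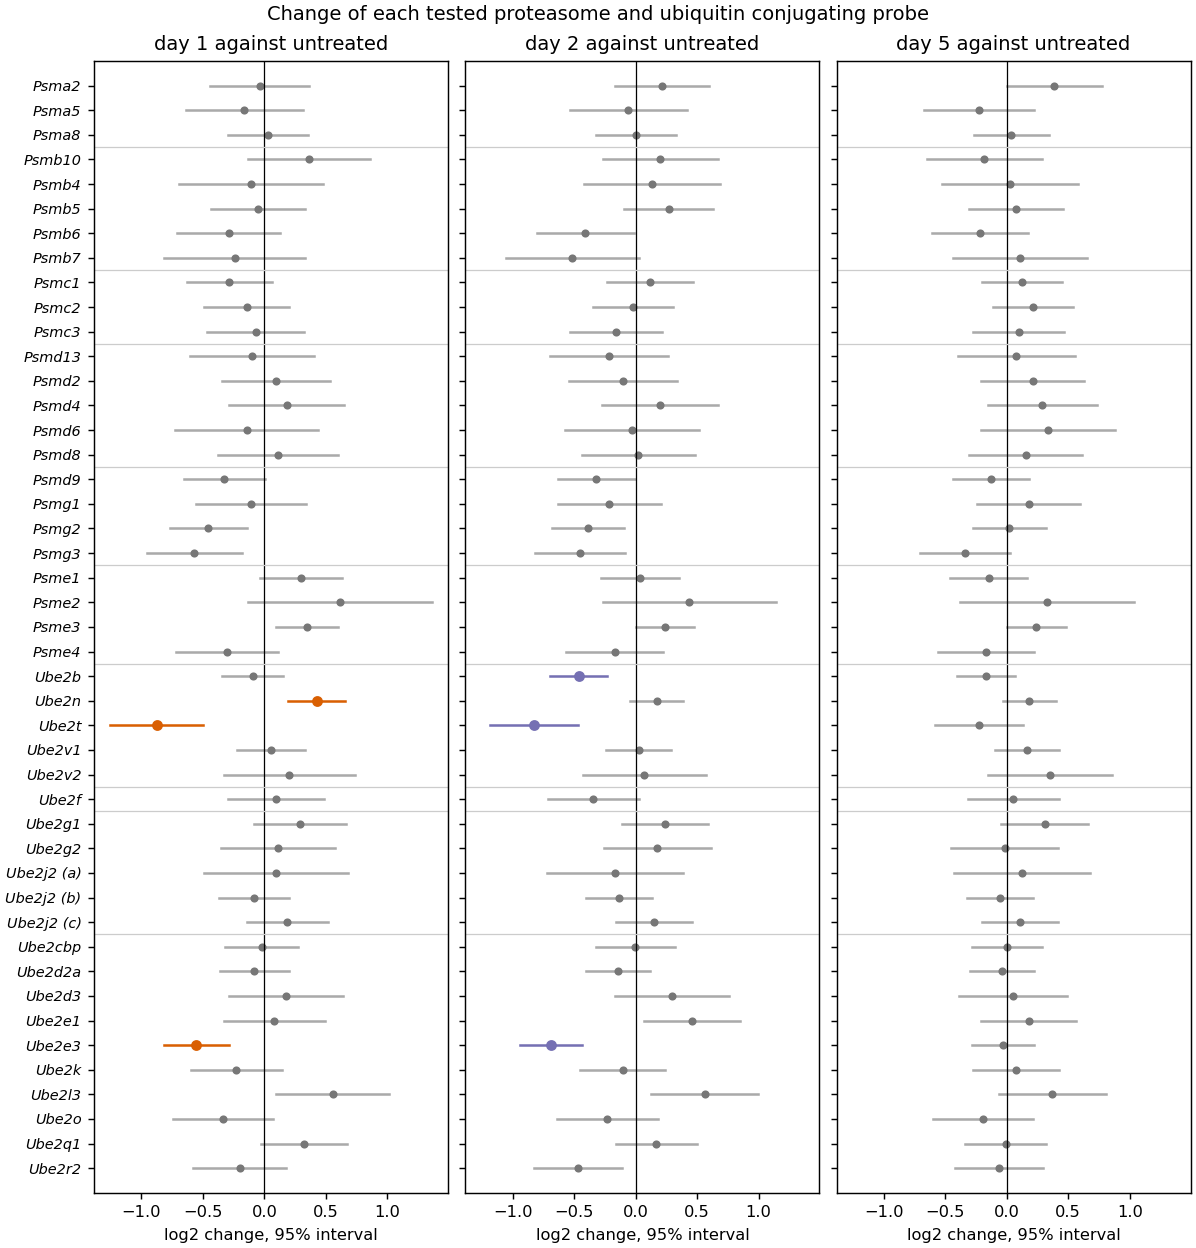
Log2 change against untreated (horizontal axis) of each of the 45 tested probes (vertical axis, ordered by role) on days 1, 2 and 5, with bars for the 95% interval. Coloured points passed the test: Ube2n, Ube2t and Ube2e3 on day 1, Ube2b, Ube2t and Ube2e3 on day 2, and none on day 5.

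None of the 24 Psm probes passed on any day, and the smallest adjusted p among them was 0.119 on day 1, 0.103 on day 2 and 0.923 on day 5. At an unadjusted p under 0.05, 1 was higher and 2 lower on day 1, 1 and 4 on day 2, and 2 and 0 on day 5, to be read against the array counts at that p given above. Most were bounded to modest changes: the 95% interval lay inside 2-fold in either direction for 23 of the 24 on day 1, 22 on day 2 and 23 on day 5. Over all 8319 probes the same held for 89.4%, 87.0% and 94.5%, so tight intervals were usual on this array. The median change of the Psm probes was -0.11 on day 1, -0.03 on day 2 and 0.09 on day 5. These intervals bound the changes and do not exclude smaller ones. A further 16 Psm probes with too few values were not tested, among them Psma1, Psma4, Psma6, Psma7, Psmb1, Psmb2, Psmd7 and the lid deubiquitinase Psmd14. Psmc3ip also fell under the name rule without being a proteasome subunit, and it had no value in any mouse.

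In the outer alpha ring, which gates the barrel, 3 genes were tested. Psma2 had untreated values of 0.15, 0.28, 0.095 and -0.19 and day 5 values of 0.47, 0.91, 0.11, 0.74 and 0.11, with a change of 0.39 on day 5 (SE 0.18, adjusted p = 0.923). Those groups overlapped, and the day 1 and day 2 changes of Psma2 were -0.04 and 0.21. Psma5 changed by -0.16, -0.06 and -0.23 on the 3 days, and its untreated mice alone ran from -0.26 to 0.66. Psma8, a subunit known from the testis, changed by 0.03, 0.0032 and 0.04. Just short of the limit on missing values were a second Ube2g2 probe, with 2 untreated mice and 3 in each other group, and Psma3, with 2 untreated and 2 day 1 mice, and just inside it were Psmc1, Psmd2 and Ube2cbp, each with 3 mice in its thinnest group.

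The beta ring holds the cutting sites, carried by Psmb5, Psmb6 and Psmb7, and Psmb10 takes the place of Psmb7 in the immunoproteasome of lymphoid cells. Psmb10 had a mean spleen-over-marrow log2 ratio of 0.65 ± 0.45 (SD, n = 5) in untreated mice, with values of 1.19, 0.74, -0.043, 0.58 and 0.81. On day 1 its mice were at 0.93, 1.12, 0.79 and 1.23, and on day 5 at 0.098, 1.26, 0.031, 0.83 and 0.16, so groups overlapped throughout. Its changes of 0.36 (SE 0.24), 0.20 (SE 0.22) and -0.18 (SE 0.22) did not pass. Psmb6 changed by -0.41 on day 2 (SE 0.19, adjusted p = 0.216). Psmb7 on day 2 read -1.94, -0.29, -0.34, -0.36 and -0.038, and its change of -0.51 (SE 0.26, adjusted p = 0.269) included mouse 1, far below the other 4. Psmb4 and Psmb5 lay between -0.11 and 0.27 over the 3 days.

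In the cap, the 3 tested ATPases changed by -0.29 to -0.07 on day 1, by -0.16 to 0.12 on day 2 and by 0.10 to 0.21 on day 5. Psmc1 had untreated values of 0.22, 0.11 and -0.20, day 1 values of -0.19, -0.16 and -0.37 and day 2 values of 0.33, 0.0028 and 0.15. The day 1 and day 2 mice did not overlap, and the difference of 0.40 (SE 0.16) had an adjusted p of 0.778. Psmc2 changed by -0.15, -0.02 and 0.21. Of the other cap subunits, Psmd2 and Psmd4, which bind ubiquitin or its shuttles, changed by 0.10 and 0.18 on day 1 and by 0.21 and 0.29 on day 5. The lid subunits Psmd6, Psmd8 and Psmd13 changed by -0.14, 0.11 and -0.10 on day 1. Psmd6 read -1.63 in untreated mouse 2 and -0.31 to 0.47 in the other untreated mice, which left its day 5 change of 0.33 with an SE of 0.26. All 5 non-ATPase subunits had positive changes on day 5, at 0.08 to 0.33, none past the test. Psmd8 read -1.31 in untreated mouse 2, against -0.33 to 0.30 in the other untreated mice. Psmd4 read -1.37 in untreated mouse 3, against -0.05 to 0.09 in the others. Each low value, like that of Psmd6, raises the changes of its gene against untreated, so the shared sign rests in part on single control mice.

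None of the 4 assembly chaperones passed the test on any day. Psmg2, which pairs with Psmg1 to start the alpha ring, had untreated values of 0.46, 0.51, 0.48, 0.29 and 0.78. On day 1 it read 0.26, -0.26, -0.059 and 0.26, on day 2 0.11, -0.25, 0.36, 0.32 and 0.047, and on day 5 0.69, 0.68, 0.44, 0.42 and 0.39. Day 1 mice were all below untreated mice, and day 2 mice all below day 5 mice. The changes of Psmg2 were -0.46 on day 1 (SE 0.15, adjusted p = 0.127) and -0.39 on day 2 (SE 0.14, adjusted p = 0.103). Psmg3, another ring-building factor, read 0.18, -0.039, 0.30 and 0.83 in 4 untreated mice and -0.31, -0.24, -0.34 and -0.13 on day 1. These groups did not overlap either, and the change of -0.57 (SE 0.18) had an adjusted p of 0.119. With technical array 1 alone, Psmg2 passed on day 2 (adjusted p = 0.0240) and Psmg3 on day 1 (adjusted p = 0.0255). No other alternative, technical array 2 alone included, gave either call. The 2 other chaperones, Psmg1 and Psmd9, changed by -0.11 and -0.33 on day 1 and by -0.22 and -0.32 on day 2. Psmg3 had the lowest day 2 change of the 4, -0.45. All 4 were below 0 on days 1 and 2, as were 3798 and 4087 of all 8319 probes. At an unadjusted p under 0.05, 2 of the 4 were lower on day 1 and 3 on day 2, where 488 and 911 of all probes were.

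None of the 4 activators passed the test on any day. Psme1 and Psme2 form the interferon-induced cap, Psme3 its nuclear relative, and Psme4 a separate nuclear activator. Psme3 had untreated values of 0.051, -0.25, -0.21, -0.41 and -0.25 and day 1 values of 0.17, 0.26, -0.081 and 0.18, which overlapped through untreated mouse 1. Its changes were 0.35 on day 1 (SE 0.12, adjusted p = 0.157), 0.24 on day 2 and 0.24 on day 5. Psme1 read 0.19, 0.19, -0.24, -0.15 and 0.054 in untreated mice and 0.25, 0.43, -0.10 and 0.65 on day 1, a change of 0.30 (SE 0.16). Psme2 had the highest day 1 change of the 45 probes, 0.61, with the largest SE beside it (0.36), since its untreated mice ran from -1.28 to 0.81. Psme4 changed by -0.31 on day 1 (SE 0.20).

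**Figure D3:**
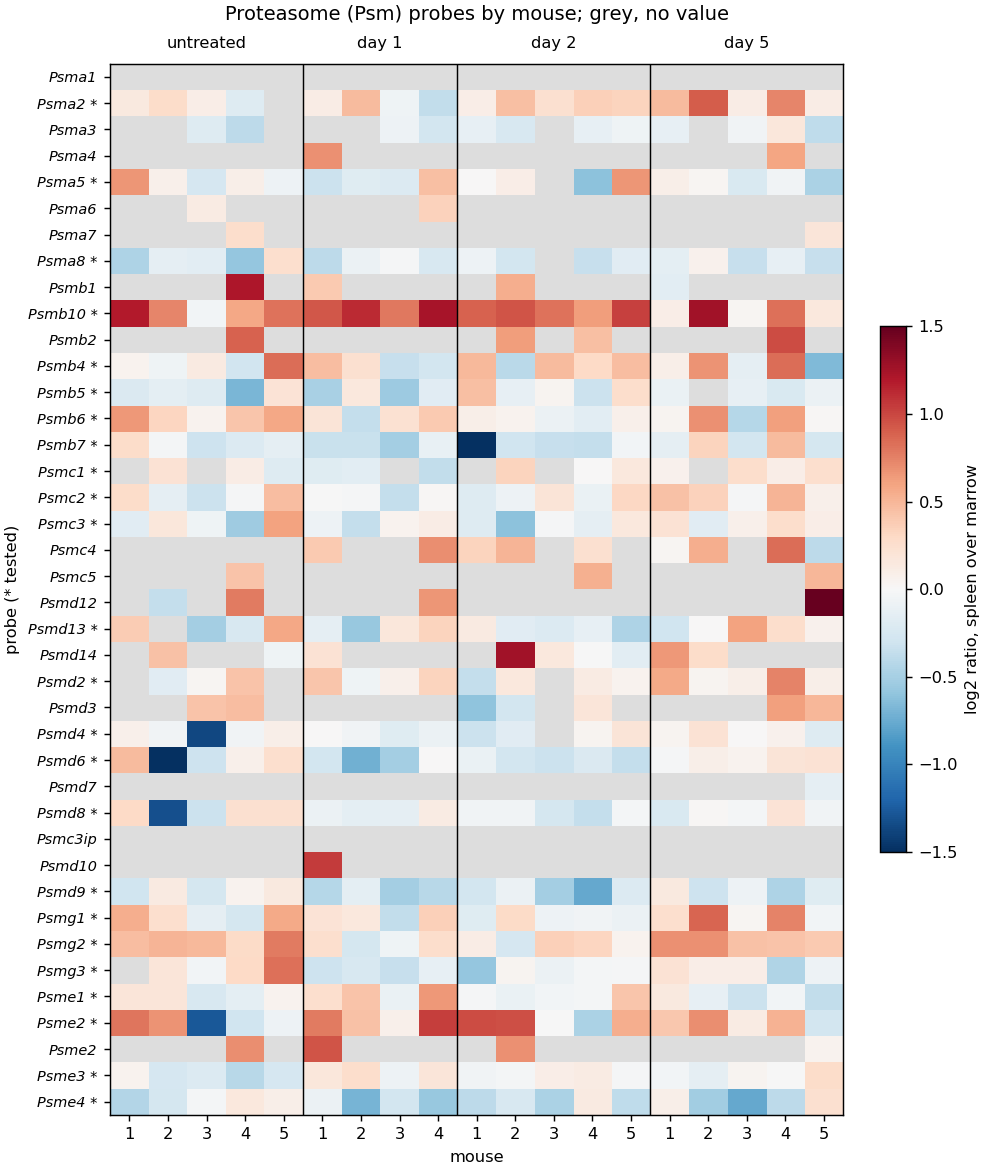
Log2 ratio to the marrow pool, by colour, of the 40 Psm probes (rows, by role) in each of the 19 mice (columns, by group), with grey for no value, an asterisk on the 24 tested probes and colours limited to -1.5 and 1.5. Single cells stand out, such as Psmb7 in day 2 mouse 1 (-1.94) and Psmd6 in untreated mouse 2 (-1.63), and Psmb10 is mostly above 0.

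Differences between the treated days were tested as well. From day 1 to day 2 no member rose (0% of all probes) and none fell (0.0601%), and at an unadjusted p under 0.05 1 member was higher and 3 were lower, where 168 and 333 of all 8319 probes were. From day 2 to day 5, 2 members rose, against 3.80% of all probes, and none fell, against 1.50%, with 7 higher and 0 lower at an unadjusted p under 0.05, where 899 and 627 of all probes were. Ube2e3 was 0.66 higher on day 5 than on day 2 (SE 0.12, 1.58-fold, adjusted p = 0.00205), with no overlap. Ube2t was 0.60 higher (SE 0.17, 1.52-fold, adjusted p = 0.0433), with overlap through day 2 mice 2 and 4. The Ube2t call was lost in 11 of 19 fits that each left out 1 mouse, at adjusted p of 0.0517 to 0.120, namely without untreated mouse 1 or 5, day 1 mouse 3 or 4, day 2 mouse 1, 3 or 5, or day 5 mouse 1, 2, 3 or 5. On day 5 the levels of Ube2t and Ube2e3 differed from untreated by -0.23 (SE 0.17) and -0.03 (SE 0.12). The F test over the 4 groups called the same pair, Ube2e3 (adjusted p = 0.000857) and Ube2t (0.00346), against 6.00% of all probes, while Ube2b had an adjusted p of 0.0546 and Psmg2 0.0663. Comparisons with untreated share the same 5 control mice, and those with day 2 the same 5 day 2 mice.

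Within each mouse the proteasome probes were also summarised by the median of their values, each centred on the mean of its 4 group means. For the 24 Psm probes it was 0.09 ± 0.19 (SD, n = 5) in untreated mice, -0.04 ± 0.14 (n = 4) on day 1, -0.04 ± 0.08 (n = 5) on day 2 and 0.09 ± 0.14 (n = 5) on day 5. Untreated mice alone ran from -0.12 to 0.37, which covers every treated mouse except day 1 mouse 3 at -0.19. For the 21 Ube2 probes the means were 0.05 ± 0.06, 0.05 ± 0.08, -0.03 ± 0.03 and 0.06 ± 0.08, and over all probes 0.0070 ± 0.02, 0.02 ± 0.02, 0.0041 ± 0.03 and 0.02 ± 0.02. Spread between mice was of the usual size: the median residual SD was 0.30 for the Psm probes, 0.27 for the Ube2 probes and 0.27 over the array.

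**Figure D4:**
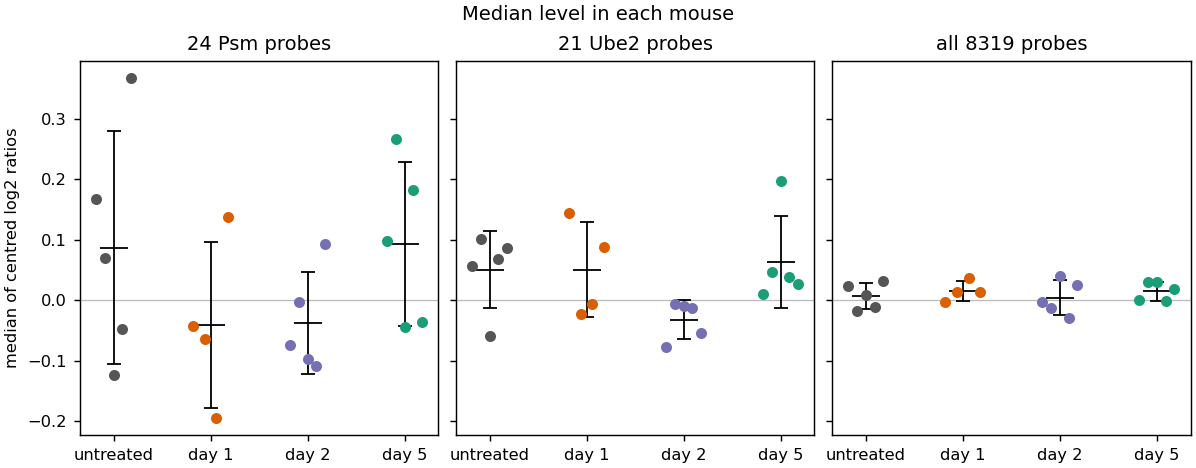
Median of the centred log2 ratios (vertical axis) in each mouse by group (horizontal axis), for the 24 Psm probes, the 21 Ube2 probes and all 8319 probes, with bars for the mean ± SD of 5, 4, 5 and 5 mice. Mice of all groups overlap in the Psm panel, where untreated mice run from -0.12 to 0.37, and all probes together stay near 0.

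Genes on either side of these enzymes were read from lists of the wider pathway, which also held the 3 genes left out by name. Of 13 ubiquitin and E1 genes 3 were tested, and Uba7, the E1 for the ubiquitin-like ISG15, fell by 1.71 on day 2 (SE 0.32, adjusted p = 0.00131) and was 1.68 higher on day 5 than on day 2 (SE 0.32, adjusted p = 0.00245), the latter not past the test under quantile normalization or equal spread of the arrays. The E2 that works with it, Ube2l6, fell by 1.37 on day 1 (SE 0.32, adjusted p = 0.0228) and by 2.31 on day 2 (SE 0.30, adjusted p = 3.09e-05). On day 5 Ube2l6 was 1.71 higher than on day 2 (SE 0.30, adjusted p = 0.00134), a call lost under quantile normalization. In its list of 6 tested genes induced together with the immunoproteasome, 1 other passed: Tap1, the peptide transporter, at 0.69 on day 2 (adjusted p = 0.0498), a call kept in 4 of 30 alternative fits and in 3 of the 19 that left out 1 mouse. The immunoproteasome subunit Psmb8 changed by 0.17, 0.40 and -0.27, none past the test. Among 13 tested genes of the anaphase-promoting complex and cullin ligases, none rose against untreated, and 2 fell on day 1 and 3 on day 2, against 1.39% and 5.00% of all probes. They were Cdc20, which activates that complex in mitosis (-1.64 and -1.99), Cul4a, a cullin scaffold (-0.99 and -0.94), and on day 2 Fzr1, the other activator of the complex (-0.75). From day 2 to day 5, 2 of the 13 rose and none fell, against 3.80% and 1.50% of all probes. They were Cdc20 (2.07) and Fzr1 (0.83), and the Fzr1 call was lost under quantile normalization or equal spread. Under quantile normalization or equal spread of the arrays, and when the 3 mice whose technical arrays correlated least were left out, the day 2 calls of Fzr1 and Cul4a were lost, and with technical array 1 alone that of Fzr1, with adjusted p of up to 0.147 for Fzr1 and 0.110 for Cul4a. Of 5 other proteasome factors, Usp14, a deubiquitinase bound to the cap, fell on day 1 by 0.84 (SE 0.22, adjusted p = 0.0447), with day 1 mouse 2 at -1.51. With 1 mouse left out in turn, the Usp14 call was kept only without day 1 mouse 3, day 2 mouse 1 or day 5 mouse 2 or 3, and had an adjusted p of 0.0503 to 0.157 without any of the other 15. The day 1 call of Ube2l6 was lost without untreated mouse 1 or day 1 mouse 1, 2 or 4 (adjusted p = 0.0545 to 0.108). That of Cul4a was lost without untreated mouse 2, 3, 4 or 5, day 1 mouse 1, 2 or 4, day 2 mouse 3 or day 5 mouse 5 (0.0502 to 0.146), and its day 2 call without day 2 mouse 5 (0.0549). The day 1 calls of Ube2l6, Cul4a and Usp14 were also lost with technical array 1 alone and without those 3 mice. Those of Cul4a and Usp14 were lost under equal spread too. A block on mouse number lost that of Cul4a, and only the groups compared that of Usp14. Of 31 alternative fits they passed in 25, 18 and 12.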

How the data were processed

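Spleen RNA of 19 mice was measured on 38 two-colour arrays, 2 per mouse, after amino allyl amplification per the labels. The authors deposited log2 ratios, spleen over marrow pool; base 2 was assumed, as no source used here states it. The pool is named as untreated marrow while its treatment field names the drug, and as all arrays share it, it cancels between groups. The sources used here do not state the background correction, normalization or software. They name no dye swap, slide or date, so no batch was tested. Of all values 63.2% are present. Technical arrays were averaged per mouse. Probes measured in 3 or more mice per group were kept, and group means were fitted over 8319 probes by lmFit and eBayes of limma 3.58.1 under R 4.3.3 (two-sided, Benjamini-Hochberg over all probes, threshold 0.05), all groups sharing the spread. Steps were tested on simulated data. Where a mouse has no value it is left out of that probe's fit. SE and interval are limma's moderated ones.

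Gene names come from the platform's annotation, promoters from RefSeq (GRCm38.p6). The genes, lists and motifs were chosen with earlier results of these data known. Members past the threshold and, in each role class, the 2 with the smallest p of the F test form the set called given in full. For some of these, such as Psma5, Psmc2 and Psmd2, the text has changes or a range and not every mouse value. In the wider pathway, up to 4 genes past the threshold per list are named. Other genes were chosen after their values were seen. Nothing says how the mice were housed or processed together, so p values measure the spread between these mice. Alternatives were other scalings, each technical array alone, other filters, a variance trend, averaged probes, a block on mouse number, only the groups compared, and leaving out mice. Plots used matplotlib 3.10.9 (Python 3.11.15).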

Additional observations from a re-analysis of the deposited data

Results flagged for a closer look

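In 6 of 76 groups of 4 or 5 mice checked among the genes given in full, 1 mouse stood far from the rest by Dixon's ratio, where chance gives about 1 in 20. Psmb7 was -1.94 in day 2 mouse 1, against -0.36 to -0.04 in the other 4. Psmg3 in the same mouse was -0.57, against -0.09 to 0.05. Psmc2 was -0.35 in day 1 mouse 3, against -0.02 to 0.01, and Psme1 was 0.42 in day 2 mouse 5, against -0.10 to -0.02. Ube2e3 was -0.18 in untreated mouse 3, against -0.04 to 0.0067, and -0.86 in day 1 mouse 2, against -0.54 to -0.51. The effects of treatment on day 2 and day 5 differed by test for 2 genes, Ube2t (0.60 on the log2 scale) and Ube2e3 (0.66).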

How the results depend on the processing

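Under 31 alternatives, 19 of which left out 1 mouse, the falls of Ube2t and Ube2e3 on day 2 and the rise of Ube2e3 from day 2 to day 5 passed in all 31. The day 1 falls passed in 30 (Ube2t) and 29 (Ube2e3), the day 2 fall of Ube2b in 27, the day 1 rise of Ube2n in 13 and the rise of Ube2t from day 2 to day 5 in 14; no called change turned its direction. Members that rose from day 2 to day 5 numbered 1, Ube2e3, under quantile normalization, equal spread, only the groups compared, without the 3 mice of lowest technical correlation, and with the replicate block, and 1 to 2 when 1 mouse was left out. Of all 8319 probes, 316 rose in the main fit, and 64, 125, 256, 245 and 290 under these settings in that order. With 1 mouse left out, 217 to 323 of all probes rose. Members that rose on day 1 numbered 0 with technical array 2 alone, with a minimum of 2 mice, with only the groups compared, without those 3 mice, and with the replicate block, and 0 to 1 with 1 mouse out. The counts over all probes were 78 in the main fit, and 63 of 7622, 73 of 9138, 88, 37 and 70 in that order. They were 38 to 88 with 1 mouse out. Members that fell on day 1 numbered 1 without those 3 mice and 0 to 2 with 1 mouse out, and those that rose on day 2 numbered 1 (Ube2e1) with only the groups compared and 0 to 1 with 1 mouse out. Over all probes, 116 fell on day 1 in the main fit, 76 without those 3 mice and 58 to 131 with 1 mouse out. On day 2, 275 of all probes rose in the main fit, 168 with only the groups compared and 181 to 282 with 1 mouse out. The F test called 4 with technical array 1 alone (Psmg2, Psmg3, Ube2e3, Ube2t) and 4 where every mouse had a value (Psmg2, Ube2b, Ube2e3, Ube2t). Its calls over all probes were counted only in the main fit (6.00%). The causes were not tested. The replicate block changed no other count of calls among the members. Mouse numbers do not pair the mice: 27 same-numbered pairs had a mean correlation of -0.00472, and 4 of 19 mice correlated best with their own number. For the 20 members given in full, 2807 values of their 92 uncalled comparisons included 6 that passed the threshold: Psmg2 on day 2 and from day 2 to day 5, and Psmg3 on days 1 and 2, with technical array 1 alone, Ube2l3 on day 2 without untreated mouse 5, and Ube2f from day 2 to day 5 without day 5 mouse 1 (0.59, adjusted p = 0.0203). The number of mice and the spread between them limit what is detectable.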
